A study of Mus musculus with 6 samples.

Results

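The nuclear-encoded subunits of the respiratory chain were described in mouse liver by RNA sequencing. Members were the protein-coding genes of the GENCODE mouse annotation whose symbols follow the naming of complex I to V subunits (Nduf with a, ab, b, c, s or v and a number, Sdha to Sdhd, Uqcr, Cyc1, Cox4 to Cox8 forms and Atp5). This rule selected 84 gene identifiers of the 54232 listed in the files, carrying 83 symbols because Atp5o has 2 identifiers. Complex I had 36 members, complex II 4, complex III 9, complex IV 17 and complex V 18. The members lie on 19 chromosomes, with 3 of them on the X. The symbol pattern leaves out Cox4i1, a subunit of complex IV, and cytochrome c (Cycs), and both are given beside the members.

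Liver came from chow-fed male C57BL/6 mice aged 8 to 10 weeks. The control group, SKO (Fxr-/-Xbp1fl/fl), lacked the bile acid receptor FXR and carried floxed Xbp1 alleles, and the second group, DKO (Fxr-/-Xbp1LKO), lacked FXR and in addition had Xbp1 deleted in the liver only. XBP1 drives genes of protein folding and secretion when the endoplasmic reticulum is under load. Each group had 3 libraries, and all differences below compare DKO with SKO, both of which lacked FXR. Whether XBP1 loss caused a given difference was not tested. The labels do not name the promoter that drove the deletion or say that libraries came from separate animals. Titles of 1 SKO and 3 DKO libraries carry 2 numbers of unstated meaning. The p-values therefore measure the spread between these libraries, which may be technical.

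The respiratory chain passes electrons from NADH (complex I) and succinate (complex II) through ubiquinone to complex III, then through cytochrome c to complex IV, which reduces oxygen. Complexes I, III and IV pump protons across the inner mitochondrial membrane, and complex V, the ATP synthase, uses the gradient to make ATP. Most subunits are encoded in the nucleus and imported, while a few core subunits of complexes I, III, IV and V are encoded by mitochondrial DNA. Hepatocytes depend on this system for glucose production, urea synthesis and fatty acid oxidation.

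Some subunits have several genes, and their sequences show how far their reads can be told apart. Subunit c, which forms the rotating ring of the ATP synthase, is encoded by Atp5g1 (chromosome 11), Atp5g2 (chromosome 15) and Atp5g3 (chromosome 2). Their coding sequences end in a shared stretch of 78 codons, shown here 5′ to 3′ from the GENCODE M21 transcripts (GRCm38) without the stop codon, with capitals at each of the 63 bases of 234 that differ among the 3 genes.
Atp5g1: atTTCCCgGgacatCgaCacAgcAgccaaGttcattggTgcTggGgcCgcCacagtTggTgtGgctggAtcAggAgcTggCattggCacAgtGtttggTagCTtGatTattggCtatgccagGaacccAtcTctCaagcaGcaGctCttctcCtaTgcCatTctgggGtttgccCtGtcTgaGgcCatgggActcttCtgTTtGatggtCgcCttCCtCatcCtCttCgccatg
Atp5g2: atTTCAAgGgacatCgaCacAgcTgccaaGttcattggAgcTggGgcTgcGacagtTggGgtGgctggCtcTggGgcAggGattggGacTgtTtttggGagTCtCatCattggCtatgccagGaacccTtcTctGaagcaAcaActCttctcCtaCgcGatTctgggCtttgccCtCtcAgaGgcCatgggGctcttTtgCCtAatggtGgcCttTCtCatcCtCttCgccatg
Atp5g3: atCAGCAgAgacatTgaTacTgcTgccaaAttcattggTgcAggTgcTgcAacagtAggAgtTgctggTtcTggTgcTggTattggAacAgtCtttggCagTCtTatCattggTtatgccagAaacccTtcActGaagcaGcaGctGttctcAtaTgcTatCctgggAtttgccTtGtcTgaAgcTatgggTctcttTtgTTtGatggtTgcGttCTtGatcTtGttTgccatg
In this stretch Atp5g1 and Atp5g2 were 84.6% identical, Atp5g1 and Atp5g3 78.6%, and Atp5g2 and Atp5g3 77.4%. The longest run of identical bases between any pair was 20, shared by Atp5g1 and Atp5g2. Differences between the 3 genes are thus spread along the stretch.

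Near copies elsewhere in the genome, defined as transcripts of other genes at least 95% identical over at least 50 bases of the coding sequence, were found for 26 of the 84 members. Atp5l had 9 such copies, Atp5h 4, and Uqcrb and Cox7c 3 each. How reads that match several places were treated is not stated, so counts of these genes are uncertain as levels. For Ndufa12 the copy Gm15920, a processed pseudogene, held 2164 counts over the 6 libraries beside 2077 for Ndufa12 itself. Exons of 29 members overlapped exons of another gene, 25 on the opposite strand and 6 on the same strand, and no source used here gives the strand setting of the counting.

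Total counts were between 16966422 and 21107674 per library. Xbp1, the deleted gene, was at 225, 260.3 and 254 CPM (counts per 1000000 counts of the library, its size corrected by edgeR's TMM factor, which scales libraries to the bulk of genes rather than to the total) in SKO and at 95.7, 67.0 and 68.2 in DKO, a log2 difference of -1.68 ± 0.14 SE (adjusted p = 0.000146 by edgeR). Of 13986 genes tested with edgeR, 2803 passed an adjusted p of 0.05 and are termed called. Over all genes tested the median log2 fold change was 0.006 with TMM factors and 0.226 with scaling by total counts, so the sign of small changes depends on the scaling. Hepatocyte markers had a lower summed level in DKO (57489 to 68798 CPM) than in SKO (88058 to 115971), with 5 of 9 called lower, and Alb, Ttr, Apoa1, Apob and Serpina1c were the 5. The other 4, Hnf4a, Asgr1, Cps1 and Fgb, were not called. Of the 9 markers, 4 had a log2 fold change within 0.25 of 0, and 1 was positive. Macrophage markers (4 of 8 called higher; 528 to 669 CPM summed in SKO, 703 to 1076 in DKO), stellate and fibroblast markers (5 of 8; 340.1 to 403, then 574 to 838) and cholangiocyte markers (3 of 6; 61.2 to 73.9, then 122 to 200.3) had higher sums in DKO. None of the endothelial (6 tested), lymphocyte (6), red cell (5) and adipocyte markers (1 of 6 tested) was called. Striated muscle markers summed to 53.8 CPM in DKO 1 and to between 0.713 and 1.27 CPM in the other 5 libraries. In bulk liver, fewer cells of a type and less RNA per cell cannot be told apart, and the part of these markers in the results below was not tested.

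Most respiratory chain subunit genes differed little between DKO and SKO. Of the 84 members 79 passed the filter on low counts, and edgeR called 11 of them, while over all genes tested 20.0% were called. The members called lower numbered 9 (background 9.70%) and those called higher 2 (background 10.3%), and at an unadjusted p under 0.05 the numbers were 18 lower (22.8%) and 3 higher (3.80%), beside 16.5% and 18.0% of all genes tested. Among genes averaging 20 CPM or more, 26.5% of members and 28.2% of all such genes were lower at that p. The shares higher there were 1.47% and 12.3%. Of the 2 called higher, Cox6b2 passed the filter only through DKO, where it was high. The share of members called, 13.9%, was below that over all genes; the difference between the shares was not tested. The 65 members with a log2 fold change within 0.25 of 0 made up most of the module. Such small changes were also usual elsewhere, with 8003 of all 13986 genes tested within 0.25. At a mean of 20 CPM or more these were 58 of 68 members and 4218 of 6114 genes. The median over the 79 was -0.14 (quartiles -0.20 and -0.03), beside 0.01 over all genes tested. With total-count scaling the members' median was 0.076 and the numbers called turned to 13 higher and 3 lower, so the direction of the module as a whole depended on the scaling.

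The members' median lay 0.147 below that of all genes (log2 difference -0.147), and 64 of the 79 members were below the median gene. Another scaling factor moves all genes by about the same amount, so it leaves this distance nearly as it is by construction and is no check of it. Leaving out each library in turn gave differences between -0.192 and -0.091. Well counted genes as a class also sat below the median gene: the 6114 genes averaging 20 CPM or more had a median of -0.07 and 24.3% of them were called, while the 68 members at that level had a median of -0.15 with 13.2% called. Library DKO 1, the one with muscle markers, lay lowest, with a median member at -0.26 (log2) from the SKO mean, beside -0.04 in DKO 2 and -0.12 in DKO 3. Without DKO 1 the members' median was -0.088, and edgeR called 6 members lower and 0 higher, among them Ndufa9, Atp5d, Ndufb3, Uqcrb and Cox7b.

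Of the 79 members tested, 22 were lower in DKO with no overlap between groups and 3 were higher. Over all genes tested, 19.4% were lower and 20.2% higher without overlap. At a mean of 20 CPM or more, 22 of 68 members and 1916 of 6114 genes were lower without overlap. Higher without overlap at that level were 1 member and 859 genes. Summed over all members the level was 14298, 13846 and 13072 CPM in SKO and 11650, 13405 and 12514 CPM in DKO. The sums of the groups overlapped, since DKO 2 exceeded SKO 3. As a share of raw counts, with no scaling, the members took 1.24% to 1.33% of each SKO library and 1.31% to 1.42% of each DKO library, the opposite order.

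**Figure D1:**
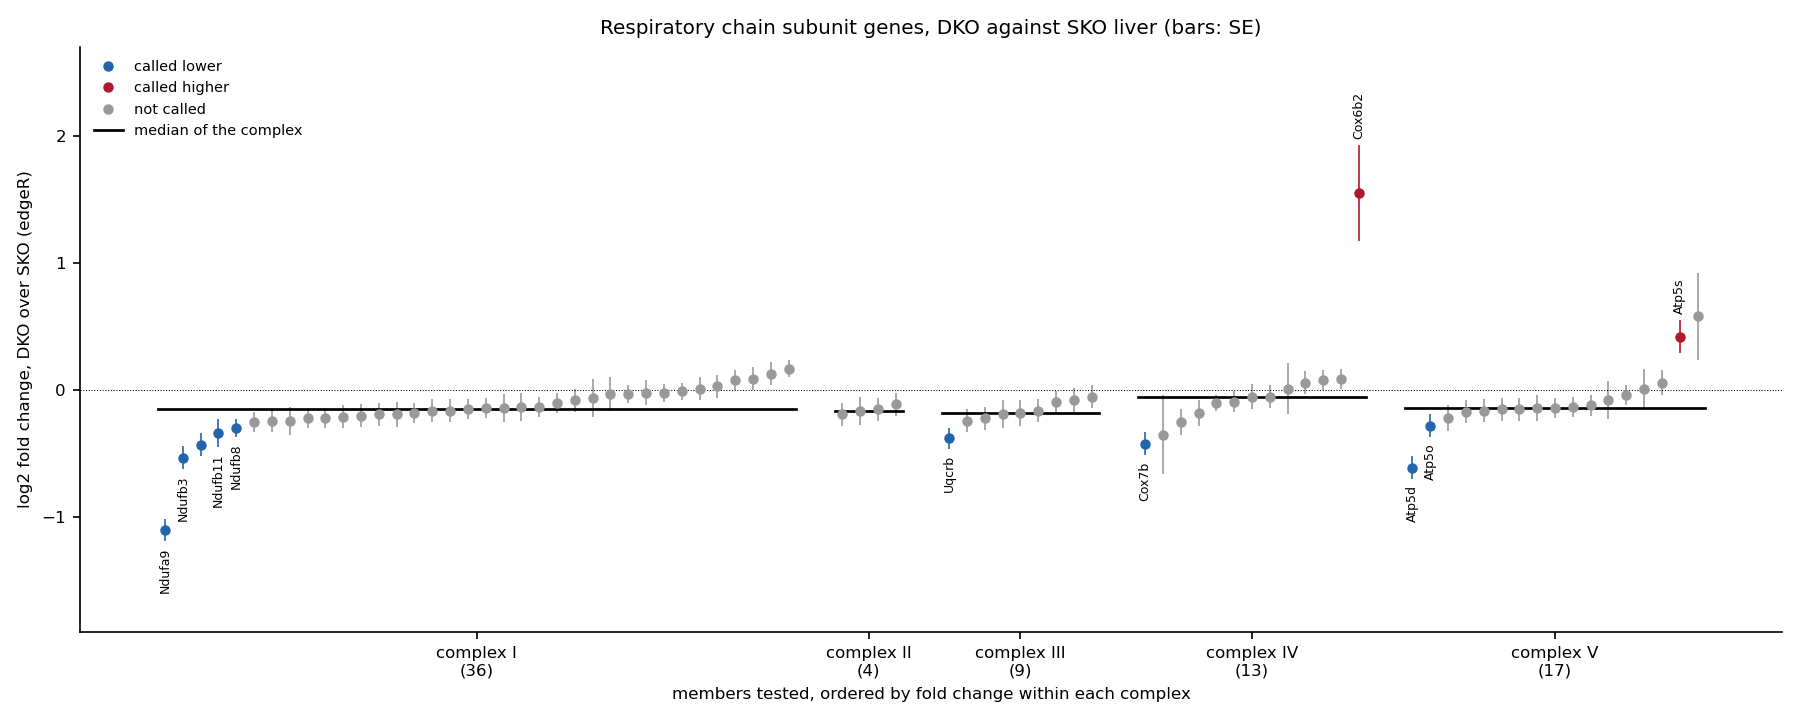
Log2 fold change (DKO over SKO, edgeR with TMM factors) of the 79 members tested, ordered within complexes I to V; bars are SE, and black lines are medians of the complexes. Most points lie between -0.25 and 0.25, the 9 members called lower reach -1.10 (Ndufa9), Cox6b2 is highest at 1.55, and the medians of all 5 complexes turn positive with total-count scaling.

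Complex I, the NADH dehydrogenase, had 5 of 36 members called lower and none called higher (1 at an unadjusted p under 0.05), with a median log2 fold change of -0.15 (0.070 with total counts). Ndufa9, an accessory subunit of the matrix arm near the ubiquinone site, showed the largest fall of all members. Its level was 125, 137 and 128 CPM in SKO and 55.5, 59.0 and 67.6 CPM in DKO. All DKO libraries were far below all SKO libraries, and the DKO mean was 46.6% of the SKO mean. The log2 fold change was -1.10 ± 0.09 (SE, n = 3 per group; adjusted p = 5.27e-05 by edgeR), and it stayed between -1.19 and -0.88 and called in each of the 12 alternatives run. Ndufa9 lies on chromosome 6, 126821721 to 126849136 on the minus strand (GRCm38), has no near copy, and shares 3.2% of its exon bases with the opposite-strand gene 1700018A23Rik, which had at most 3 counts in any library.

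Ndufa9 also changed its place within complex I. Relative to the median complex I gene of the same library, a measure free of library scaling, it was higher by 0.56, 0.65 and 0.66 (log2 of counts plus 0.5) in SKO, and in DKO it was at -0.39, -0.51 and -0.21. It passed from above the middle of its complex to below it in all 3 DKO libraries. Ndufb3, an accessory subunit of the membrane arm, moved on the same measure from -0.58, -0.75 and -0.59 to -1.09, -0.95 and -1.08.

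In CPM, Ndufb3 was at 58.6, 52.8 and 53.9 in SKO and at 34.1, 43.5 and 37.0 in DKO. The groups did not overlap, and the log2 fold change was -0.53 ± 0.09 (adjusted p = 0.00486 by edgeR), called in all 12 alternatives. It lies on chromosome 1, 58586384 to 58595964 on the plus strand, and its copy Gm45930, 96.8% identical, held 1 count in all libraries together.

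Ndufb8 and Ndufb11, both accessory subunits of the membrane arm, were lower by smaller amounts. Ndufb8 went from 102 ± 6.12 CPM to 82.8 ± 3.56 CPM (SD, n = 3 each; log2 -0.30 ± 0.07 SE, adjusted p = 0.018 by edgeR), and the call ended without SKO 2, without DKO 1 and with total counts. Ndufb11, on the X chromosome, went from 132 ± 12.6 CPM to 104 ± 13.2 CPM (log2 -0.34 ± 0.11, adjusted p = 0.0498 by edgeR). Its call held in 1 of 6 fits with a library left out and in 3 of the 6 other alternatives. At the other end, Ndufa7, an accessory subunit of the matrix arm, had 97.8, 92.6 and 89.8 CPM in SKO and 100.1, 109.5 and 105 in DKO. These groups did not overlap, yet the log2 fold change of 0.17 ± 0.07 did not pass (adjusted p = 0.128 by edgeR), and upper-quartile or total-count scaling brought it past the threshold. Ndufv1, which binds NADH and FMN, and Ndufa10 were the most counted of the other members not called, at log2 0.09 ± 0.09 and 0.08 ± 0.08.

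Complex II, succinate dehydrogenase, which also works in the tricarboxylic acid cycle, had none of its 4 members called (0 at an unadjusted p under 0.05). Log2 fold changes were between -0.19 and -0.11 with a median of -0.16 (0.061 with total counts). Sdha, the flavoprotein that oxidises succinate, had 858, 783 and 787 CPM in SKO and 645, 791 and 733 in DKO, so that the groups overlapped (log2 -0.16 ± 0.11, adjusted p = 0.312 by edgeR). Sdhb, the iron-sulfur subunit, was at 275 ± 12.5 CPM in SKO and 255 ± 24.5 in DKO. Sdhd, a membrane anchor, was at 306 ± 16.5 CPM and 268 ± 25.1 CPM (adjusted p = 0.182 by edgeR), with groups that did not overlap.

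Complex III, the cytochrome bc1 complex, had 1 of 9 members called, and all 9 had a negative log2 fold change with TMM factors (median -0.18; 0.034 with total counts). Uqcrb, a small accessory subunit at the ubiquinone side, was the one called. Its level was 55.9, 53.3 and 49.4 CPM in SKO and 38.8, 43.3 and 39.4 CPM in DKO. Every DKO library was lower than every SKO library (log2 -0.38 ± 0.08, adjusted p = 0.00809 by edgeR), and the call ended only with total counts (adjusted p = 0.121). Its 3 near copies together held 8 counts beside 5301 for Uqcrb. The core proteins Uqcrc1 and Uqcrc2 were the most counted members not called, at log2 -0.05 ± 0.09 and -0.08 ± 0.10. The Rieske iron-sulfur protein Uqcrfs1, 249 ± 9.41 CPM in SKO and 214 ± 20.2 in DKO, did not overlap between groups and was not called (log2 -0.22, chosen here after its values were seen).

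Complex IV, cytochrome c oxidase, had a median of -0.05 over 13 members tested, which was 0.008 with upper-quartile factors and 0.165 with total counts, and 1 member was called in each direction. Cox7b, an X-linked small subunit, had 195, 183 and 173 CPM in SKO and 124, 146 and 142 CPM in DKO. It was lower in every DKO library (log2 -0.42 ± 0.09, adjusted p = 0.00957 by edgeR) and lost the call only with total counts (adjusted p = 0.0718). Cox6a1 (log2 0.06 ± 0.09), Cox6b1 (-0.05 ± 0.09), Cox7a2 (0.08 ± 0.08) and Cox8a (-0.09 ± 0.08), the forms made in most tissues, were not called. Cox7a2l, described as a factor that links complexes III and IV in supercomplexes, was at 50.4 ± 1.50 CPM in SKO and 47.0 ± 1.20 in DKO (adjusted p = 0.312 by edgeR). Whether its product does so in these mice was not tested. Ndufa4, named after complex I and found in complex IV, was at 285 ± 26.5 and 251 ± 22.6 CPM and was not called. Cox4i1, which the symbol pattern misses, was at 414 ± 17.5 CPM in SKO and 422 ± 28.0 in DKO (adjusted p = 0.85 by edgeR).

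**Figure D2:**
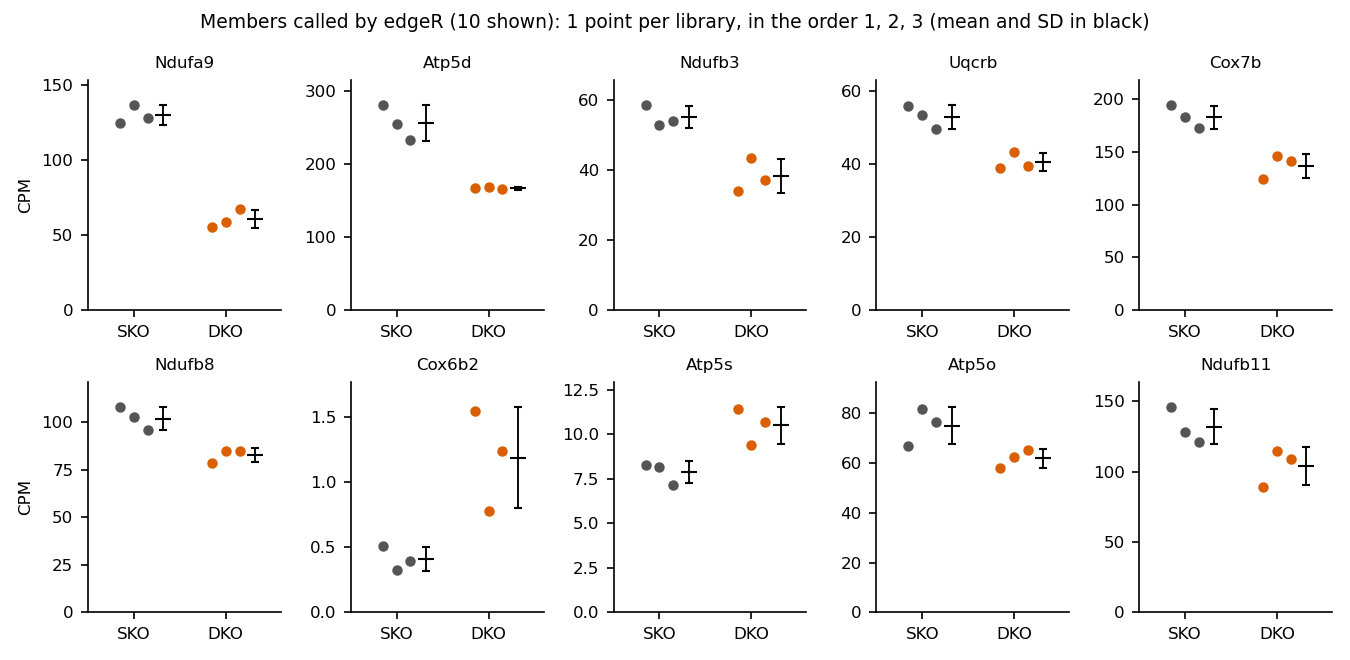
CPM of 10 members called by edgeR, 1 point per library, with mean and SD in black and each vertical axis starting at 0. In all 10 panels the 3 DKO points lie on one side of the 3 SKO points; the gap is widest for Ndufa9 (55.5 to 67.6 against 125 to 137) and narrow for Atp5o and Ndufb11.

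Complex IV also has forms made mainly in other tissues, and these were counted near the limit of detection. Cox6b2, the testis form of subunit 6b, had 8, 6 and 7 counts in SKO and 37, 16 and 24 in DKO. Each DKO library was above each SKO library (0.410 ± 0.0908 CPM against 1.19 ± 0.389; log2 1.55 ± 0.38, adjusted p = 0.019 by edgeR), but the call was lost in 4 of the 6 fits with a library left out (adjusted p up to 0.0813). Its counts in SKO were too low for the filter, so it entered the test only through DKO, where it was high. Its call is therefore given as a description only. Cox6b1, its counterpart in most tissues, kept at least 99.2% of the counts of the pair in every library.

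Cox6a2, the heart and muscle form of subunit 6a, was below the filter and not in the main test. It had 1, 0 and 1 counts in SKO and 19, 8 and 19 in DKO. Over the groups this is 0.0387 and 0.723 CPM, a ratio of 18.7 with a 95% counting interval of 4.89 to 159 that covers counting error only. In the fit with no filter Cox6a2 was called higher. Striated muscle markers were high in DKO 1 alone: Ckm, Mb and Myh2 had 171, 28 and 33 counts there and 0 in the other 5 libraries. All 10 muscle markers together summed to 1.17 CPM in DKO 2 and 0.933 CPM in DKO 3, beside 0.713 to 1.27 CPM in SKO. Whether muscle RNA contributed to the Cox6a2 counts was not tested. Cox6a2 made up at most 0.388% of the Cox6a counts of a library.

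For the other muscle forms the groups overlapped. Cox7a1 had 20, 22 and 13 counts in SKO and 19, 19 and 15 in DKO (log2 -0.35 ± 0.31, adjusted p = 0.464 by edgeR). Cox8b had 1, 2 and 1 counts in SKO and 7, 3 and 0 in DKO, a ratio of 2.03 with a counting interval of 0.587 to 8.88. Cox7b2 and Cox8c, testis forms, and the second Atp5o identifier had no count in any library, where 3 counts would be 0.126 to 0.191 CPM.

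**Figure D3:**
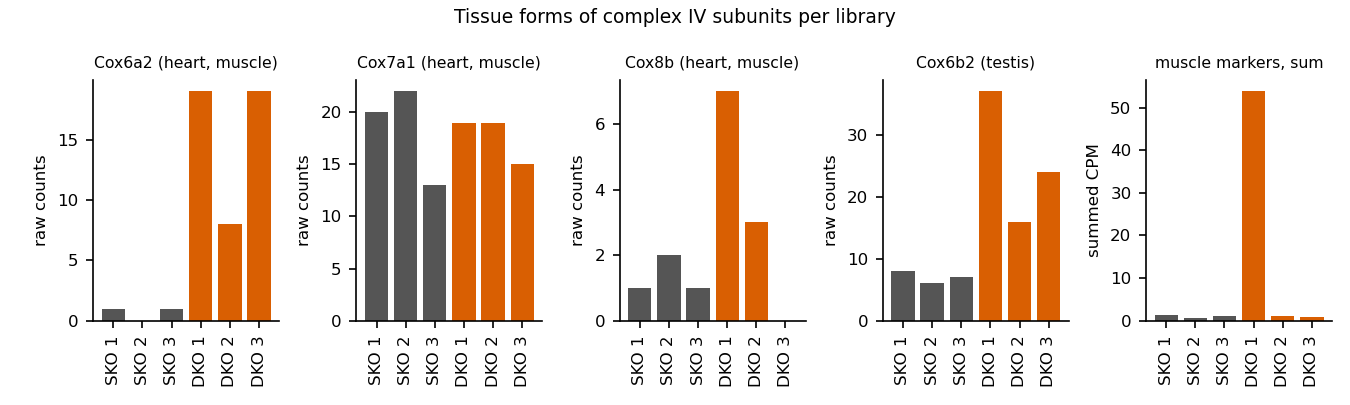
Raw counts of the tissue forms Cox6a2, Cox7a1, Cox8b and Cox6b2 and the summed CPM of 10 striated muscle markers, 1 bar per library, each axis starting at 0. Cox6a2 (8 to 19 counts) and Cox6b2 (16 to 37) are higher in all 3 DKO libraries, while the muscle markers stand out in DKO 1 alone (53.8 CPM).

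Complex V, the ATP synthase, had 2 of 17 members called lower and 1 called higher, with a median of -0.14 (0.081 with total counts). Atp5d, the delta subunit of the central stalk that turns with the ring, was at 281, 255 and 232 CPM in SKO and 167, 169 and 165 CPM in DKO. The DKO libraries were close together and all below SKO, at 65.3% of its mean (log2 -0.61 ± 0.09, adjusted p = 0.00146 by edgeR). The call held in all 12 alternatives, with log2 values between -0.68 and -0.39. Atp5d lies on chromosome 10, 80138632 to 80145818 on the plus strand, has no near copy, and shares 3.5% of its exon bases with Cbarp on the opposite strand, which had 29 to 103 counts.

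No other subunit of the F1 head was called. Atp5b, the catalytic beta subunit and the most counted member, was at 1720, 1664 and 1616 CPM in SKO and 1658, 1850 and 1685 CPM in DKO, so that the groups overlapped (log2 0.06 ± 0.10, adjusted p = 0.744 by edgeR). Atp5a1, the alpha subunit, was at 1345 ± 43.5 CPM and 1151 ± 84.8 CPM and was not called (log2 -0.22 ± 0.10, adjusted p = 0.146 by edgeR). Relative to the median complex V gene of its library, Atp5d was at 1.33, 1.06 and 1.11 (log2) in SKO and at 0.84, 0.59 and 0.66 in DKO. Atp5b was at 3.94, 3.76 and 3.91 in SKO and at 4.15, 4.04 and 4.01 in DKO on the same measure. Whether the changes of Atp5d and Atp5b differ was not tested.

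Atp5o, the subunit that confers oligomycin sensitivity, went from 75.0 ± 7.52 to 61.9 ± 3.80 CPM (log2 -0.28 ± 0.09, adjusted p = 0.0483 by edgeR). The Atp5o call was kept in 1 of 6 fits with a library left out and in 2 of the 6 other alternatives. It was lost with DESeq2, limma-voom, upper-quartile and total-count scaling. Other genes overlap 47.9% of its exon bases, and these genes had 0 counts in every library. Atp5s, coupling factor B, which is not a fixed subunit of the enzyme, was higher in DKO. Its level was 8.26, 8.17 and 7.15 CPM in SKO and 11.4, 9.37 and 10.7 CPM in DKO (log2 0.42 ± 0.13, adjusted p = 0.0412 by edgeR). The groups did not overlap, but the call was kept in 1 of 6 fits with a library left out and was lost with DESeq2.

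Among the 3 genes for subunit c whose sequences are shown above, Atp5g3 held 98.7% to 99.0% of their counts in every library. It was at 532, 519 and 473 CPM in SKO and 432, 482 and 461 in DKO (log2 -0.15 ± 0.09, adjusted p = 0.29 by edgeR), and the groups overlapped. Atp5g1 held 0.816% to 1.02% of the counts, at 4.55 ± 0.256 and 4.57 ± 0.357 CPM. Atp5g2 had 9, 19 and 11 counts in SKO and 20, 26 and 25 in DKO (log2 0.58 ± 0.34, adjusted p = 0.261 by edgeR). Atp5g1 and Atp5g2 have near copies and Atp5g3 has none, so the shares of the 3 genes may carry losses that differ between them, which was not tested.

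Per length, levels spanned a wide range within complexes. As CPM per kilobase of merged exons in SKO, the median was 60.4 in complex I, 159 in complex II, 135 in complex III, 39.4 in complex IV and 59.5 in complex V over the members tested. With the length of the principal transcript these became 98.6, 245, 218, 183 and 175. The order of complexes I, IV and V thus depends on the length used, with complex I lowest under principal transcripts and complex IV under merged exons. Complex II was highest under both. Atp5a1 (429 ± 13.9) and Atp5b (393 ± 12.4) led, and with principal transcripts Atp5b (869.8 ± 27.4) and Atp5g3 (707 ± 42.7) did. Members with a near copy had a median of 38.1 and those without one 86.5 CPM per kilobase. Cox7c, whose copies are up to 100% identical, stood at 3.46 ± 0.634, far below Cox6a1 at 369 ± 23.6.

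**Figure D4:**
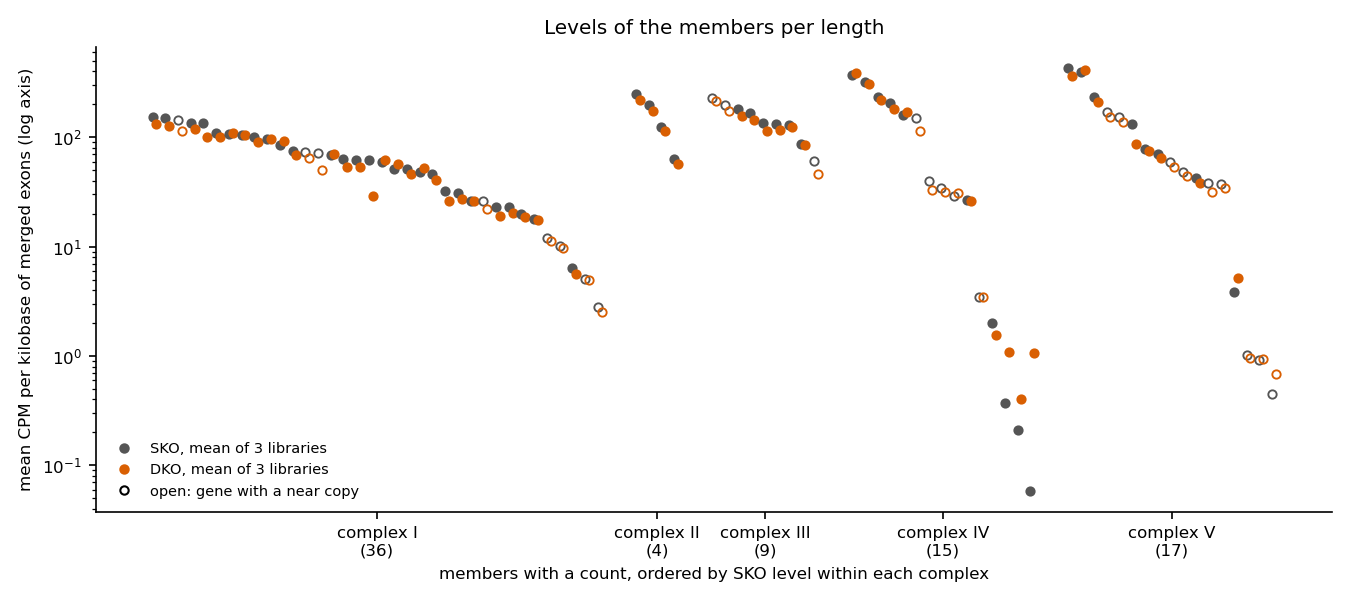
Mean CPM per kilobase of merged exons (log axis) of the 81 members with a count, ordered by SKO level within each complex, SKO grey and DKO orange, open circles for genes with a near copy. Most pairs of points nearly coincide, Ndufa9 stands out in complex I, and members with near copies make up most of the low end of complex I.

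Members with and without overlapping or copied sequence were compared as a description. Over all genes tested 20.0% were called, 9.70% lower and 10.3% higher. Of 27 tested members with exon overlap 7 were called, all lower (25.9%, median -0.19). Of 52 without it 2 were called lower and 2 higher (7.69% called, median -0.10). Of 25 tested members with a near copy 5 were called (20.0%), and of 54 without one 6 were (11.1%). The differences between these shares were not tested.

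Other genes of mitochondrial respiration were read from lists that do not belong to the members. The 13 respiratory genes of mitochondrial DNA were all listed at 0 in every library, so mitochondrial-encoded subunits cannot be compared with the nuclear ones here. Of 17 complex I assembly factors, 4 of complex II, 6 of complex III and 5 genes of ATP synthase assembly and inhibition, edgeR called none. Of 22 tested complex IV assembly factors 1 was called lower, Coa6, which helps load copper (30.6 ± 1.45 to 24.3 ± 0.674 CPM; log2 -0.34, adjusted p = 0.0147 by edgeR). Cycs was at 5.28 ± 0.875 and 4.32 ± 0.751 CPM (adjusted p = 0.324 by edgeR).

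Lists of genes that feed electrons into the chain had shares called near or below that of all genes, and nothing is read from them for a list as a whole. Of 18 genes of the tricarboxylic acid cycle and pyruvate dehydrogenase 3 (16.7%, against 20.0% of all genes) were called higher and none lower, and the median log2 fold change was -0.03, with 11 of the 18 negative. Mdh2, malate dehydrogenase, was at 269 ± 12.7 CPM in SKO and 376 ± 12.2 in DKO (log2 0.49 ± 0.08, adjusted p = 0.00363 by edgeR), and Cs, citrate synthase, at 186 ± 5.64 and 245 ± 2.18 (log2 0.40 ± 0.07, adjusted p = 0.0054 by edgeR). Of 13 genes of coenzyme Q synthesis (median 0.07) 1 was called (7.69%), Coq7, which was higher (log2 0.37 ± 0.10, adjusted p = 0.0248 by edgeR). Outside the complexes, the ADP/ATP carrier Slc25a4 rose from 9.18 ± 0.616 to 19.9 ± 5.36 CPM and Sqor, which oxidises sulfide, fell from 199 ± 14.8 to 153 ± 5.20 CPM (adjusted p = 0.00462 and 0.0102 by edgeR), with 2 of 13 called higher and 1 lower (23.1% called, median -0.02). Slc25a4 varied more between DKO libraries than between SKO libraries. Whether the muscle RNA of DKO 1 (markers summing to 53.8 CPM) contributed to its counts was not tested.

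Among 19 tested regulators of mitochondrial biogenesis 2 were called lower and none higher (10.5% called against 20.0% of all genes tested, median -0.12). Gabpa, an ETS factor known to act on respiratory genes, fell from 71.6 ± 5.32 to 54.7 ± 3.01 CPM (log2 -0.39 ± 0.08, adjusted p = 0.00803 by edgeR), and Polg2 of the mitochondrial DNA polymerase was the other (log2 -0.45 ± 0.14, adjusted p = 0.0445 by edgeR). Ppargc1a (9.72 ± 0.366 and 12.3 ± 2.77 CPM), Nrf1 (12.5 ± 1.23 and 11.5 ± 0.183), Esrra (41.1 ± 3.61 and 38.1 ± 1.94) and Tfam (62.6 ± 7.70 and 51.6 ± 1.26) were not called. Of 12 genes of the mitochondrial unfolded protein response 4 were called higher and 1 lower (41.7% called against 20.0% of all genes tested, median 0.19). The list was chosen with earlier results known, and the difference between these shares was not tested. Smallest in p were Atf5 (166 ± 10.5 to 481 ± 66.7 CPM, log2 1.54 ± 0.11, adjusted p = 3.0e-05 by edgeR) and Lonp1 (194 ± 10.1 to 329.6 ± 41.8 CPM, log2 0.77 ± 0.10). Of 27 tested import genes 3 were called lower (11.1% called, median -0.04), among them Tomm70a (log2 -0.30) and Timm9 (log2 -0.36).

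Promoters of the members were read for letters that such regulators recognise. RefSeq promoter windows (GRCm38.p6, 250 bases before to 50 after the start) were found for 69 members, 74 windows in all. On either strand, the NRF1 string GCGCANGCG was in 28.4% of these windows and in 6.25% of all 32851 promoters. The ETS string CCGGAAG was in 21.6% against 8.86%, the YY1 string AANATGGC in 23.0% against 6.05%, and the ERR string TNAAGGTCA in 4.05% against 1.28%. At least 1 of the NRF1, ETS and YY1 strings was near the start of 43 of the 69 members (62.3%) and of 20.8% of all genes, and none of the strings contains another. The XBP1 string TGACGTG was in 1 of the 74 windows (1.35%), beside 2.01% of all promoters. A match is a description of letters, not a binding site. The YY1 string contains the letters ATG. Whether matches just after the start, such as that of Ndufa9 at +29, overlap start codons was not tested. All promoters were taken for comparison, with no matching for base composition.

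The window with the XBP1 string is that of Atp5s, the member called higher in complex V, and it is shown with that of Ndufa9, the member with the largest fall. The Atp5s window is chr12:69724695-69724994 on the plus strand, with the XBP1 string in capitals at -26 from the start. The Ndufa9 window is chr6:126849095-126849394 on the minus strand, with a YY1 match in capitals at +29.
Atp5s: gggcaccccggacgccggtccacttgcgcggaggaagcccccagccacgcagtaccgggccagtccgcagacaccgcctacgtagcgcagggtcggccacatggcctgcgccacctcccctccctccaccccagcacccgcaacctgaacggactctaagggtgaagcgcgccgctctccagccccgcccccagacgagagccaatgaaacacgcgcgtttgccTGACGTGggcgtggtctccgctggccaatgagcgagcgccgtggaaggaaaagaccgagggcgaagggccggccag
Ndufa9: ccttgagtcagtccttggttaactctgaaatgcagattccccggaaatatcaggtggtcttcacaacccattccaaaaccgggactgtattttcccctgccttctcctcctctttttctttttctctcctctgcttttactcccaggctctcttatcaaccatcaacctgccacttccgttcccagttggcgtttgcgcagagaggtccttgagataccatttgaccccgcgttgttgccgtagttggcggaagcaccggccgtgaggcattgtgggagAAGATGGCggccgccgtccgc
Among the other called members, Cox7b and Ndufb8 had a YY1 match just after the start (+35 and +38), Ndufb11 one at -211, and Atp5o an NRF1 match at +10. Ndufb3, Atp5d and Cox6b2 had none of the 5 strings in their windows.

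**Figure D5:**
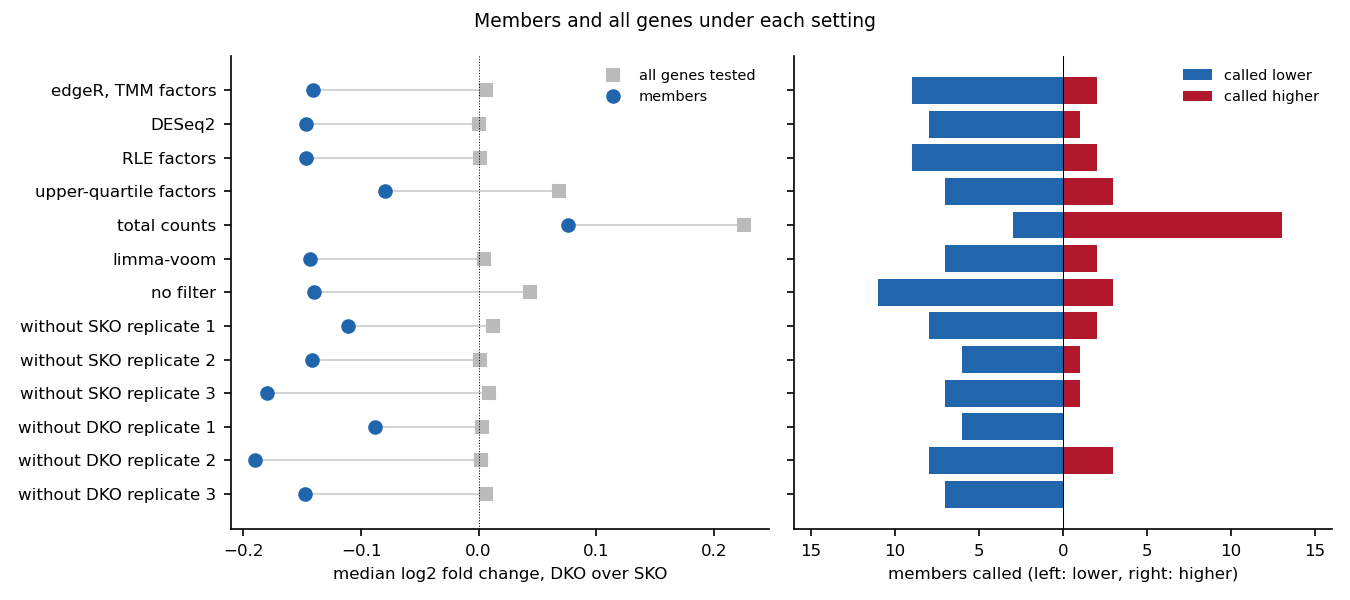
Left, median log2 fold change of the members (circles) and of all genes tested (squares) under each setting; right, members called lower and higher. Circles and squares move together under another scaling by construction; the members' median is above 0 with total counts (0.076), and 13 members are then called higher and 3 lower.

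The calls that did not depend on these settings were few. Ndufa9, Atp5d and Ndufb3 kept theirs in all 12 alternatives, and Uqcrb and Cox7b in all but total-count scaling. Ndufb8, Ndufb11, Atp5o, Atp5s and Cox6b2 each lost their call when some single library was left out.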

How the data were processed

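RNA was sequenced from liver in 3 SKO and 3 DKO libraries. The authors deposited raw read counts per Ensembl gene, as whole numbers. Tools listed in the submitters' processing notes are STAR, HTSeq 0.6.1p1, cutadapt 1.13 and DESeq2, with build mm10. No source used here gives their settings, the annotation release or strand use. Identifiers were matched to GENCODE M21 on GRCm38, the same assembly (54165 matched, 67 did not). Of the genes matching the symbol pattern, 1 that is not protein coding was left out. Groups follow the genotype label, and replicate numbers are accession order and pair nothing.

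Counts were filtered with filterByExpr and tested with edgeR 4.0.16 (R 4.3.3; TMM factors, glmQLFit and glmQLFTest, robust, no covariate), adjusted by Benjamini-Hochberg over all 13986 genes tested and called under 0.05. The script was tested on simulated data. CPM values use effective library sizes, the product of total count and TMM factor (0.928, 0.903 and 0.951 in SKO, 1.13, 1.06 and 1.05 in DKO). Limits of a count of 0 (3 counts) and 95% intervals cover counting error only. Near copies came from blastn 2.17.0. Libraries of a group differed by more than sampling noise, so none was deposited repeatedly.

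The members and the lists of other genes and markers were chosen with earlier results of these data known. Coa1 and Tf had no match. Named in each complex were the 4 called members with the smallest p, the 2 most counted not called, the largest and smallest fold change, and all tissue forms, plus the 2 best called of each list and Cox4i1, Cycs, Ppargc1a, Nrf1, Esrra and Tfam; the remaining called members, Uqcrfs1, Cox7c, Ndufa12 and the marker genes were picked once values were known. Alternatives were DESeq2 1.42.0, RLE, upper-quartile and total-count scaling, limma-voom (limma 3.58.1), no filter, each library left out, and other lengths. The length of the principal transcript was chosen after seeing the data. Of the called members, 1 is not reported here.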

Additional observations from a re-analysis of the deposited data

How the results depend on the processing

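Scaling by total counts raised the genes called to 4397, the members called higher to 13 and lowered those called lower to 3. It turned the median log2 fold change to 0.076 over all members and to 0.070, 0.061, 0.034, 0.165 and 0.081 in complexes I to V. The same scaling turned Sdha to 0.05, Sdhb to 0.11, Sdhd to 0.03, Uqcrc1 to 0.17, Uqcrc2 to 0.14, Cox6b1 to 0.17, Cox7a2l to 0.12, Cox8a to 0.14, Ndufa4 to 0.04 and Atp5g3 to 0.07. With upper-quartile factors complex IV was at 0.008, and Uqcrc1 and Cox6b1 at 0.01 each. DESeq2 called 1 member higher. RLE factors, limma-voom and no filter changed no direction. Leaving out 1 library at a time gave 1419 to 2739 genes called, 6 to 11 members called, 0 to 3 higher and 6 to 8 lower, and the log2 fold changes nearest 0 changed sign: Cox6a1 (-0.01 to 0.11, negative without DKO 2), Cox6b1 (-0.11 to 0.01, positive without DKO 1) and Atp5g1 (-0.06 to 0.05, negative without SKO 2 or DKO 2). The fewest genes were called without SKO 2 (1419), SKO 3 (1784) and DKO 3 (1831), and 7 members each were called without SKO 2 or DKO 3. Medians of complexes I to V stayed negative or at 0 in these fits, at -0.194 to -0.092, -0.222 to -0.089, -0.260 to -0.116, -0.086 to -0.000 and -0.181 to -0.085, and over all members -0.190 to -0.088. The causes were not tested. A fit with a library left out also has fewer samples, which cannot be told apart from the effect of that library. No paired analysis was possible because the labels give no replicate numbers shared between the groups. Levels of Cox6a2, Cox8b and other genes of few counts are limited by depth, and the members' small fold changes by 3 libraries a group.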
